A study of Mus musculus with 12 samples.

Results

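The 33 genes described here are expressed by the cells that line blood vessels, the inner surface of the heart and lymphatic vessels. They were chosen by name, 15 as pan-endothelial genes, 7 as capillary genes, 4 as arterial or venous genes, 3 as endocardial genes and 4 as lymphatic genes, out of 19056 genes with a named probe on the array. All 33 had a probe. Where a gene had several probes, the probe with the highest mean over the 12 hearts was used, so the 33 genes stand for 69 probes and 13 genes rest on a single probe. Npr3, Cd300lg, Nostrin, Lyve1, Rbp7 and Meox2 are also in the list of changed genes that the study drew from these arrays, so their differences are not independent evidence.

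Whole hearts of mouse embryos at E15.5 were measured with 1 Illumina WG-6 expression array each. The hearts came from 3 wild-type (WT), 4 MatKO (Ddc-/+), 4 PatKO (Ddc+/-) and 1 KO (Ddc-/-) embryo. MatKO embryos carried the Ddc_exon1a deletion on the allele from the mother, PatKO embryos on the allele from the father, and the KO embryo on both. Ddc encodes dopa decarboxylase, the enzyme that makes serotonin and dopamine from their precursors, and its heart transcript is made from the paternal allele. The allele is a gene trap, Ddc Gt(OST129277)Lex, carried throughout the body on a mixed B6;129S5 background, and homozygous loss is lethal before birth. A single KO heart gives no measure of spread for its genotype.

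The endothelium is a single layer of cells that differs along the vascular tree. Capillary endothelium of the heart takes up fatty acids for the muscle, arterial endothelium depends on Notch signalling, the endocardium lines the chambers and gives rise to valve mesenchyme, and lymphatic endothelium is specified from veins by Prox1. During heart development a capillary plexus spreads through the compact wall while the endocardium remains the inner lining.

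Values are log2 signals, normalized by the authors so that the 12 arrays share nearly the same distribution, with medians between 5.61 and 5.62 and all values between 4.58 and 15.59. Ddc, the targeted gene, lay between 13.42 and 14.12 in the 7 WT and MatKO hearts and between 9.12 and 10.44 in the 5 PatKO and KO hearts on its brightest probe. Over all probes, any pair of hearts correlated at a Pearson r between 0.983 and 0.993. Xist, which is transcribed in female cells, was at 5.995 in MatKO 3, at 4.75 in PatKO 1 and at 5.13 in PatKO 3 and at 12.57 or more in the other hearts. The arrays were on 2 slides, and neither the slide nor the litter of a heart is stated. The first principal component (27.1% of the variance) divided the hearts across genotypes, with WT 1, MatKO 3, MatKO 4, PatKO 1, PatKO 2 and the KO heart on one side and the other 6 on the other. MatKO and PatKO hearts of the same side had deviations from their group means that correlated at 0.14 to 0.35, and those of opposite sides at -0.35 to -0.15. The sides were drawn from the same values, so these signs largely follow from the division and are no separate evidence of it. Whether the sides are the slides cannot be told. Since a whole heart was measured, fewer cells of a type and less RNA per cell cannot be told apart.

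Endothelium was well represented in every heart. Of the 33 genes, 27 had a mean of 7 or more. Cdh5, the cadherin of endothelial junctions, lay between 10.88 and 11.68, and Pecam1, an adhesion molecule of all endothelium, between 11.11 and 11.62. The 6 other genes, Kdr, Erg, Fabp4, Apln, Dll4 and Flt4, had means under 7, where background compresses differences and a low value is no measure of absence, although Kdr and Erg are defining genes of endothelium and Flt4 of lymphatic vessels.

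**Figure D1:**
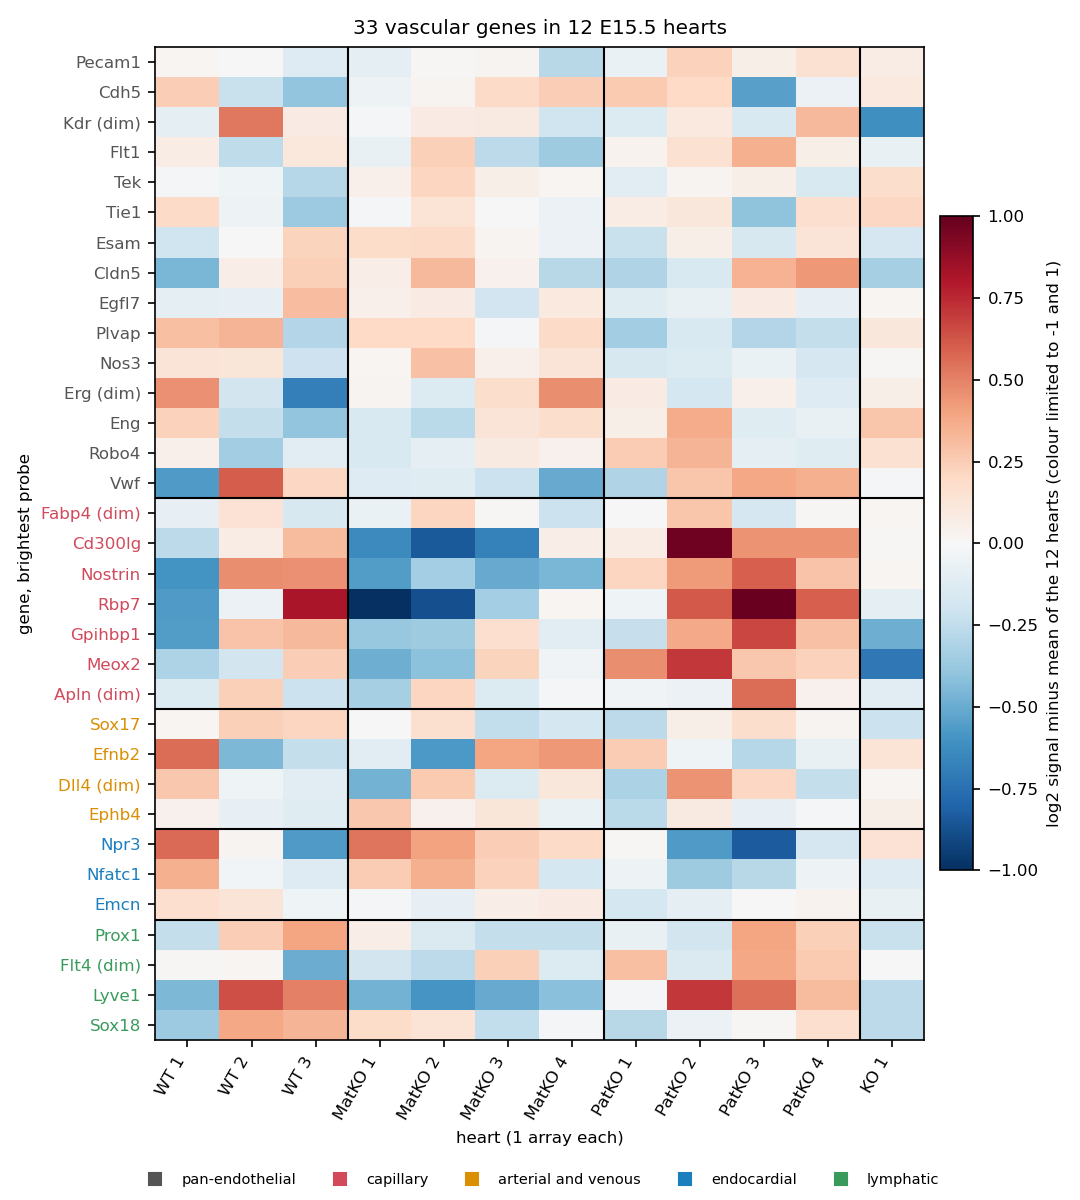
Log2 signal of each of the 33 genes (rows, brightest probe, grouped by role) in each of the 12 hearts (columns), relative to the gene's mean over the hearts, with the colour limited to -1 and 1. The capillary rows Cd300lg, Nostrin and Rbp7 are blue in WT 1 and most MatKO hearts and red in PatKO 2, 3 and 4. Among the pan-endothelial rows Vwf has a like split, and Plvap and Nos3 are lower in every PatKO heart than in every MatKO heart.

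The comparison of PatKO with MatKO hearts sets hearts with reduced Ddc against carriers of the same allele with Ddc near the WT level. Of 7 capillary genes, Cd300lg, Nostrin, Rbp7 and Meox2 were higher in PatKO hearts by the study's criterion, as was the lymphatic gene Lyve1. On the brightest probe, 0 of 15 pan-endothelial, 0 of 4 arterial and venous and 0 of 3 endocardial genes met it. Further probes of the endocardial genes Npr3 and Nfatc1 did meet it, on the lower side, as given below. At an adjusted p under 0.05 (limma, Benjamini-Hochberg over 45267 probes) 0 of the 33 genes passed, against 0.00663% of all probes. At an unadjusted limma p under 0.05, 5 genes lay higher and 4 lower, against 3.3% and 3.82% of all probes. By the study's criterion, which asks for an unadjusted limma p under 0.01 and a log2 difference beyond 0.4 in either direction, 5 genes passed and all 5 were higher in PatKO hearts: Cd300lg, Nostrin, Rbp7, Meox2 and Lyve1. That criterion was met by 1.39% of all probes (0.625% on the higher side, 0.76% on the lower), and by 2.29% of the 9298 genes with a mean of 7 or more. All 5 genes are in the study's own list, drawn by this criterion from these arrays, and the members were chosen with earlier results known. Their passing was thus built in, so the count cannot be read as an excess over these shares. PatKO and MatKO hearts did not overlap for 7 of the 33 genes, 4 higher and 3 lower, against 4.75% of all probes and 7.86% of the genes with a mean of 7 or more. The number past the criterion was 3 without MatKO 1, MatKO 2, PatKO 2 or PatKO 3, while Cd300lg, Nostrin and Lyve1 passed with each heart left out in turn. Npr3 and Plvap, both lower in PatKO hearts, passed as well with the replicate block, with a trended and robust variance and with only the arrays compared.

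With the side of the first principal component as a covariate, an alternative chosen after seeing the data, 5 genes passed, all higher, and they were the same 5. Each side holds 2 MatKO and 2 PatKO hearts. The difference of PatKO minus MatKO on the side of WT 1 and on the other side was 0.83 and 1.19 for Cd300lg, 0.80 and 0.89 for Nostrin and 0.81 and 0.97 for Lyve1. It was 0.49 and 0.70 for Meox2, 0.45 and 1.76 for Rbp7 and -0.50 and -0.97 for Npr3. The direction held on both sides for these 6 genes, and the Rbp7 value differed most between the sides. For all but Rbp7 the PatKO and MatKO hearts did not overlap, so the same direction on both sides was fixed in advance. It is therefore no separate support for these differences.

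By role, 7 of 7 capillary genes were on the higher side in PatKO hearts, with a median log2 difference of 0.59. All 3 endocardial genes were on the lower side, with a median of -0.35. Pan-endothelial genes divided into 7 higher and 8 lower with a median of -0.03, arterial and venous genes into 2 and 2, and lymphatic genes into 3 and 1. The median over the 33 genes was 0.05 and that over all genes with a mean of 7 or more was -0.01. Cd300lg, Nostrin, Rbp7 and Meox2 among the capillary genes and Npr3 among the endocardial genes are in the study's list from these arrays. The medians and counts by role were thus partly built in and are no separate support, here and in the comparisons below. Fabp4 and Apln, also counted among the capillary genes, are dim.

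**Figure D2:**
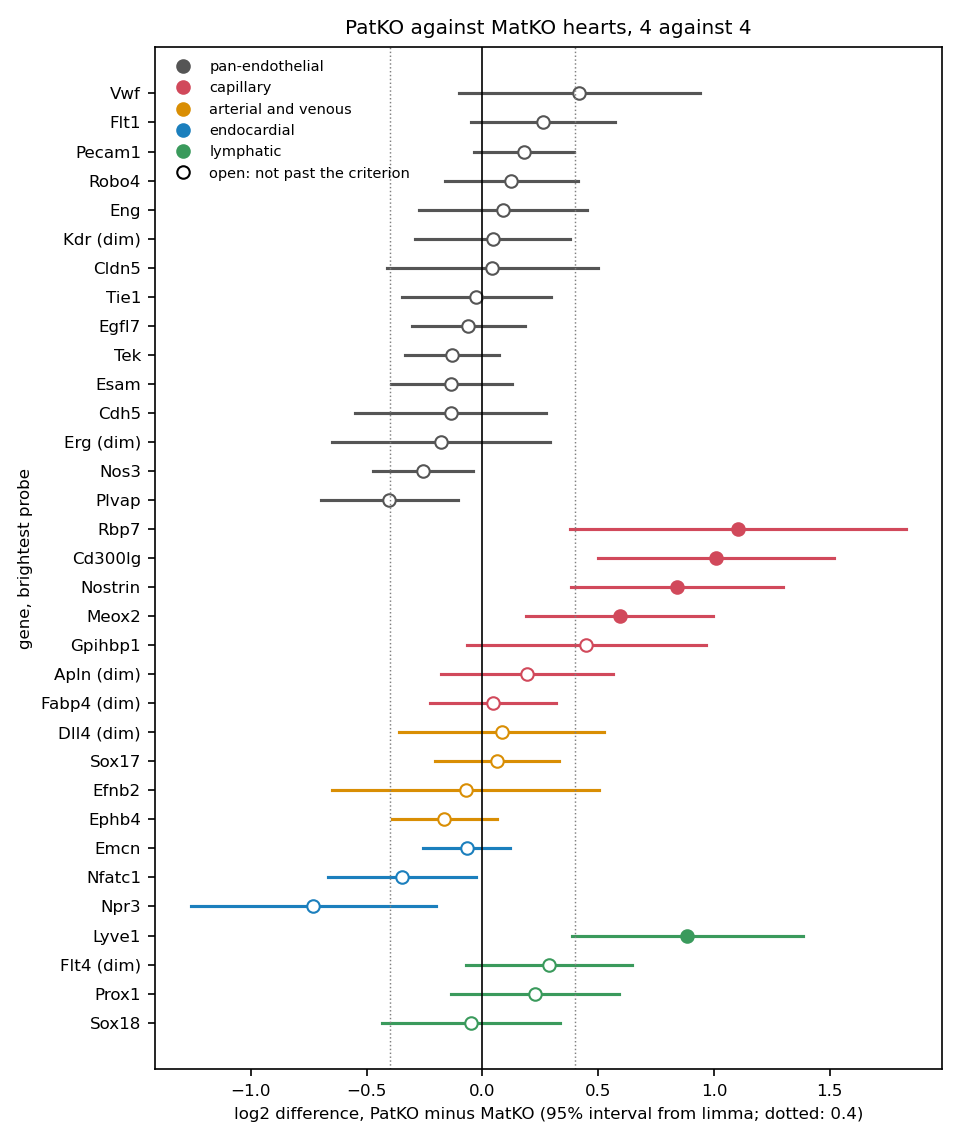
Log2 difference of PatKO minus MatKO hearts (points) with its 95% interval from limma (lines) for the 33 genes, coloured by role, with filled points for genes past the criterion and dotted lines at -0.4 and 0.4. The filled points are 4 capillary genes and Lyve1, and the lowest estimate is that of Npr3 at -0.73.

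Cd300lg encodes a receptor on the surface of capillary and venular endothelium. Its log2 signal was 8.91, 8.71, 8.87 and 9.61 in MatKO hearts, 9.62, 10.52, 10.00 and 9.99 in PatKO hearts, 9.28, 9.62 and 9.86 in WT hearts and 9.55 in the KO heart. PatKO and MatKO hearts did not overlap, though MatKO 4 and PatKO 1 all but met, and the WT and KO hearts lay between the extremes. The difference of PatKO minus MatKO was 1.01 (SE 0.23, 2.01-fold, limma p = 0.00113, adjusted p = 0.431), and the exact two-sided permutation test gave p = 0.0286, the smallest that 4 against 4 hearts can give. A second Cd300lg probe, dimmer than the first, differed by 0.91.

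Nostrin encodes an adaptor that binds endothelial nitric oxide synthase and draws it from the cell membrane. Its log2 signal was 9.24, 9.46, 9.30 and 9.34 in MatKO hearts and 10.01, 10.22, 10.39 and 10.08 in PatKO hearts, so the groups stood clearly apart. The WT hearts divided, with 9.20 in WT 1, 10.26 in WT 2 and 10.25 in WT 3, and the KO heart was at 9.81. The difference of PatKO minus MatKO was 0.84 (SE 0.21, 1.79-fold, limma p = 0.00198, adjusted p = 0.448, exact permutation p = 0.0286), and the second Nostrin probe gave 0.86.

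Rbp7 encodes a retinol-binding protein of the fatty acid-binding family found in capillary endothelium. It had the widest range of the capillary genes: 9.86, 10.04, 10.58 and 10.94 in MatKO hearts, 10.88, 11.53, 11.91 and 11.52 in PatKO hearts, 10.35, 10.86 and 11.74 in WT hearts and 10.83 in the KO heart. PatKO 1 lay below MatKO 4, so the groups overlapped. The difference of PatKO minus MatKO was 1.10 (SE 0.33, limma p = 0.00658, adjusted p = 0.492, exact permutation p = 0.0571), and it missed the criterion without MatKO 1, MatKO 2, PatKO 2, PatKO 3 or PatKO 4. A second Rbp7 probe near background gave 0.11.

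Meox2 encodes a homeobox factor that, with Tcf15, sets fatty acid transport in heart capillaries. Its log2 signal was 10.06, 10.14, 10.77 and 10.51 in MatKO hearts, 11.01, 11.25, 10.82 and 10.78 in PatKO hearts, 10.24, 10.36 and 10.79 in WT hearts and 9.83 in the KO heart. PatKO 4 was just above MatKO 3, so the 2 groups did not overlap but touched, and the KO heart was the lowest of the 12. The difference of PatKO minus MatKO was 0.59 (SE 0.18, limma p = 0.00805, adjusted p = 0.516, exact permutation p = 0.0286), and it missed the criterion without any 1 of WT 2, MatKO 1, MatKO 2, MatKO 4, PatKO 1, PatKO 2 or PatKO 3.

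The remaining capillary genes did not pass. Gpihbp1 encodes the protein that carries lipoprotein lipase to the capillary lumen, and it was at 10.50, 10.52, 11.05 and 10.77 in MatKO hearts and 10.65, 11.26, 11.55 and 11.17 in PatKO hearts, which overlapped. Its difference was 0.45 (SE 0.23, limma p = 0.0821, exact permutation p = 0.0857), and a second probe gave 0.51. Fabp4, a fatty acid chaperone, and Apln, the apelin peptide of sprouting vessels, were dim, with means of 5.05 and 4.97 and differences of 0.05 and 0.19.

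**Figure D3:**
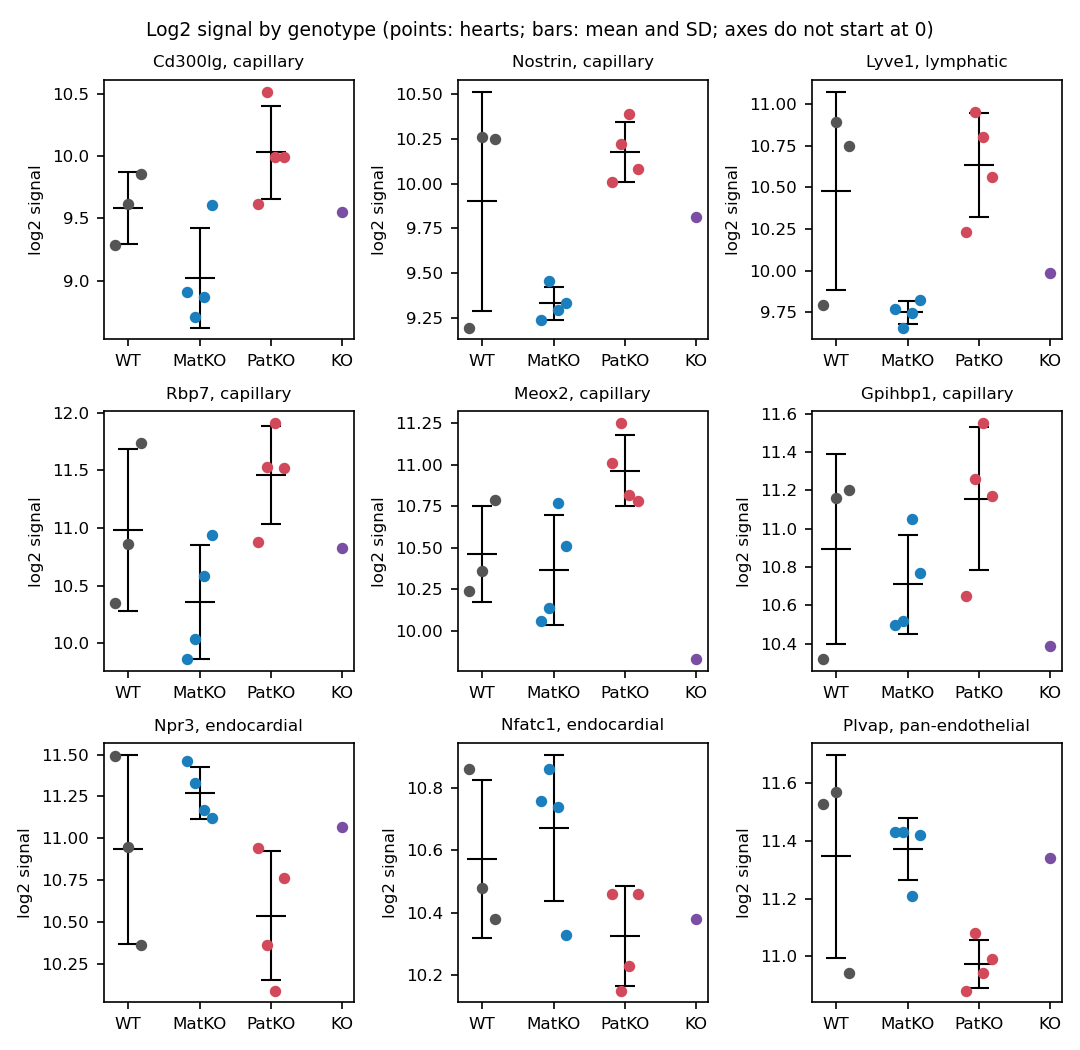
Log2 signal of 9 of the genes in each heart (points) by genotype, with the mean and SD of each group of hearts (bars), on axes that do not start at 0. Nostrin and Lyve1 of WT 1 lie with the MatKO hearts while WT 2 and WT 3 lie with the PatKO hearts, and Npr3 shows the reverse order of PatKO and MatKO hearts.

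The promoters of the capillary genes that differed are shown because these genes were high in the same hearts. RefSeq promoter windows on GRCm38.p6 were at hand for 20 of the 33 genes (25 windows), among them Nostrin, Rbp7 and Meox2, and the 250 bases before each start were read 5′ to 3′ on the gene's strand. They are Nostrin at chr2:69135550-69135799 (plus strand), Rbp7 at chr4:149454969-149455218 (minus strand) and Meox2 at chr12:37108290-37108539 (plus strand). Capitals mark GGAA and its reverse complement TTCC, the core bound by ETS factors such as Erg and Fli1, which are central to endothelial transcription.
Nostrin: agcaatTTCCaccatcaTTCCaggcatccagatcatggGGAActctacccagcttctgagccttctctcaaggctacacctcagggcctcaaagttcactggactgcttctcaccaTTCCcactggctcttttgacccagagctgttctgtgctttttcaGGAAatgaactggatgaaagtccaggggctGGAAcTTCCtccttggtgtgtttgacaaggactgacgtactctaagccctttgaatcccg
Rbp7: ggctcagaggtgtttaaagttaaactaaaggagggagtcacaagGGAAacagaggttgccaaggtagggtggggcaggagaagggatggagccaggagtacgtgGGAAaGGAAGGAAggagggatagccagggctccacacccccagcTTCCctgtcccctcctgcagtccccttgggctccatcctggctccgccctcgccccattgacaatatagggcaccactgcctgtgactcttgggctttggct
Meox2: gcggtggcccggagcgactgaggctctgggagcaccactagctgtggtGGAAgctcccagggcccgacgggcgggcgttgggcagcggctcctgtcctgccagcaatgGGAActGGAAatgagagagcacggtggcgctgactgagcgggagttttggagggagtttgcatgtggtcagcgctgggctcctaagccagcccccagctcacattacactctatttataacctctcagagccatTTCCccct
The core occurred 7 times in the Nostrin window, 5 times in the Rbp7 window and 4 times in the Meox2 window. It is a frequent word: 93.4% of 32851 mouse promoter windows of this length held it at least once, with a median of 3, and so did 22 of the 25 windows of the genes described here (88.0%), also with a median of 3. The E-box CANNTG, searched on both strands, was in 66.2% of all windows and in 64.0% of those of the genes described here, with 1 match in the Meox2 window and 0 in the Nostrin and Rbp7 windows. The E-box and the ETS core can overlap, and a match is a description of the sequence only.

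None of the 3 endocardial genes passed the criterion on its brightest probe. Npr3 encodes the natriuretic peptide clearance receptor, a marker of endocardium at this stage. Its log2 signal was 11.46, 11.33, 11.17 and 11.12 in MatKO hearts, 10.94, 10.36, 10.09 and 10.76 in PatKO hearts, 11.49, 10.95 and 10.36 in WT hearts and 11.07 in the KO heart. Every PatKO heart was below every MatKO heart, and the WT hearts spanned both. The difference of PatKO minus MatKO was -0.73 (SE 0.24, limma p = 0.0112, adjusted p = 0.540, exact permutation p = 0.0286), just outside the criterion. Of the 5 other Npr3 probes, those with differences of -0.78 and -0.63 passed the criterion, those with -0.44 and -0.50 did not, and the dimmest gave 0.14.

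Nfatc1, the calcineurin-dependent factor of endocardial and valve endothelium, was at 10.76, 10.86, 10.74 and 10.33 in MatKO hearts, 10.46, 10.15, 10.23 and 10.46 in PatKO hearts, 10.86, 10.48 and 10.38 in WT hearts and 10.38 in the KO heart. MatKO 4 lay among the PatKO hearts. The difference was -0.35 (SE 0.14, limma p = 0.0355, adjusted p = 0.657, exact permutation p = 0.0857). One further probe of Nfatc1 passed the criterion at -0.52, and the other 4 gave values from -0.25 to 0.08. Emcn, a sialoglycoprotein of venous, capillary and endocardial endothelium, was even across hearts, from 13.02 to 13.36, with a difference of -0.07 (95% interval -0.25 to 0.12).

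Among lymphatic genes only Lyve1 passed the criterion. Lyve1 encodes a hyaluronan receptor of lymphatic endothelium that some macrophages and liver sinusoids also carry. It was at 9.77, 9.66, 9.74 and 9.83 in MatKO hearts, 10.23, 10.95, 10.80 and 10.56 in PatKO hearts, 9.80, 10.89 and 10.75 in WT hearts and 9.99 in the KO heart. All PatKO hearts exceeded all MatKO hearts, and WT 1 again lay with the MatKO hearts. The difference was 0.88 (SE 0.23, 1.85-fold, limma p = 0.00249, adjusted p = 0.448, exact permutation p = 0.0286). Lyve1 has 1 probe on the array.

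The other lymphatic genes gave smaller values. Prox1, the factor that specifies lymphatic fate and is also made by heart muscle, lay between 11 and 11.63 over the 12 hearts with a difference of 0.23, and its second probe gave -0.27. Flt4, the receptor for Vegfc, was dim and differed by 0.29 (SE 0.16, limma p = 0.106, exact permutation p = 0.0857), with 6.43, 6.36, 6.86 and 6.48 in MatKO hearts and 6.92, 6.47, 7.01 and 6.88 in PatKO hearts, which overlapped. Sox18 gave -0.05.

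The macrophage and sinusoid lists stand beside Lyve1 because both cell types can carry it. Of 17 macrophage genes measured, 11 were higher in PatKO than MatKO hearts and 1 passed the criterion, with a median difference of 0.15. The macrophage mean ran from -0.29 to 0.11 in MatKO hearts, from -0.30 to 0.79 in PatKO hearts and from -0.31 to 0.54 in WT hearts, relative to the 12 hearts. Csf1r, the defining macrophage receptor, differed by -0.07. The gene past the criterion was Fcer1g, an Fc receptor chain, at 4.88, 4.80, 9.70 and 4.89 in MatKO hearts, 8.11, 9.64, 10.19 and 8.52 in PatKO hearts and 8.80, 9.21 and 9.37 in WT hearts, so that MatKO 1, MatKO 2 and MatKO 4 stood apart and MatKO 3 did not. Of 10 sinusoid endothelial genes 7 were higher and 3 lower, with 1 past the criterion on each side, and the sinusoid mean of MatKO hearts ran from -0.20 to 0.23 and that of PatKO hearts from -0.25 to 0.05. The gene past the criterion on the higher side was Ctsl, a lysosomal protease of many cells, at 1.35, and that on the lower side was Clec4g, a sinusoidal lectin, at -0.65, while Stab2, a defining scavenger receptor, was dim. The part of either cell type in the Lyve1 difference was not tested.

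Pan-endothelial genes held nearly level on average. Their mean in each heart (13 genes with a mean of 7 or more) ran from -0.08 to 0.10 over the 12 hearts, and 0 of 15 passed the criterion between PatKO and MatKO. Plvap, the diaphragm protein of fenestrated and immature vessels, was at 11.43, 11.43, 11.21 and 11.42 in MatKO hearts, 10.88, 11.08, 10.94 and 10.99 in PatKO hearts, 11.53, 11.57 and 10.94 in WT hearts and 11.34 in the KO heart. The PatKO hearts lay below all MatKO hearts, by -0.40 on average (SE 0.13, limma p = 0.0126, adjusted p = 0.553, exact permutation p = 0.0286).

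Nos3, the endothelial nitric oxide synthase that Nostrin binds, was at 10.89, 11.16, 10.92 and 11 in MatKO hearts and 10.71, 10.73, 10.80 and 10.70 in PatKO hearts, again without overlap, and at 11, 10.99 and 10.66 in WT hearts and 10.88 in the KO heart. Its difference of -0.26 (SE 0.10, limma p = 0.0239, adjusted p = 0.603, exact permutation p = 0.0286) was small, and its 3 other probes gave -0.33, -0.37 and -0.23. The remaining 13 pan-endothelial genes had differences from -0.18 to 0.42 and limma p-values of 0.0901 or more. Vwf, the clotting factor carrier stored in endothelium, was the highest of them at 0.42 (SE 0.24), Flt1, a decoy receptor for Vegfa, gave 0.26 and Pecam1 0.18.

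Arterial and venous genes gave no difference past the criterion. Ephb4, the venous receptor of ephrin B2, was at 12.89, 12.66, 12.74 and 12.55 in MatKO hearts and 12.35, 12.71, 12.54 and 12.60 in PatKO hearts, which overlapped, with a difference of -0.16 (SE 0.10, limma p = 0.138, exact permutation p = 0.200). Its arterial ligand Efnb2 gave -0.07 (95% interval -0.65 to 0.50), the arterial factor Sox17 gave 0.06 (-0.20 to 0.33), and the dim Notch ligand Dll4 gave 0.08. Those intervals leave room for moderate differences in either direction.

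The same hearts can be set against WT. Comparisons with WT share the 3 WT hearts with one another and the PatKO or MatKO hearts with the comparison above, so they are given side by side and not as separate support. Against WT, 0 of 33 genes of PatKO hearts passed the criterion (0.614% of all probes did) and 0 passed an adjusted p under 0.05 by limma (0.00663% of all probes). At an unadjusted p under 0.05, 1 gene lay higher and 1 lower, against 1.75% and 2.17% of all probes. The smallest p-values were those of Plvap at -0.38 (SE 0.15, exact permutation p = 0.114), Meox2 at 0.50 (SE 0.20, exact permutation p = 0.0571) and Flt4 at 0.36 (SE 0.18, exact permutation p = 0.114), each overlapping between the groups and each with an adjusted p of 1 by limma. Without WT 3 the count was 2, Plvap at -0.58 and Meox2 at 0.67. All 7 capillary genes were again on the higher side with a median of 0.27, and the 3 endocardial genes on the lower side with a median of -0.25.

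MatKO hearts also had 0 of 33 genes past the criterion against WT (0.702% of all probes) and 0 past an adjusted p under 0.05 by limma (0% of all probes). At an unadjusted p under 0.05, 0 genes lay higher and 3 lower, against 2.41% and 2.47% of all probes. Their capillary genes lay on the other side of WT, with 1 of 7 higher and a median of -0.18. The estimates of lowest p were Lyve1 at -0.73 (SE 0.24, exact permutation p = 0.0571), Nostrin at -0.57 (SE 0.22, exact permutation p = 0.171) and Cd300lg at -0.56 (SE 0.25, exact permutation p = 0.0857), each with an adjusted p of 0.999 by limma. Without WT 1 the count was 2, with Lyve1 at -1.07 and Nostrin at -0.92, and without MatKO 4 or PatKO 1 it was 1. Nostrin therefore differed from WT by -0.57 in MatKO hearts and by 0.27 (SE 0.22) in PatKO hearts, and Lyve1 by -0.73 and 0.15.

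The KO heart did not stand with the PatKO hearts for the capillary genes. It had Meox2 at -0.63 relative to WT (SE 0.30, adjusted p of 1 by limma), Gpihbp1 at -0.50, Lyve1 at -0.49 and Nostrin at -0.09. Only Kdr, the main receptor for Vegfa, passed the criterion (1.51% of all probes did), at -0.79 (SE 0.25, limma adjusted p = 0.630), and 0 genes passed an adjusted p under 0.05 by limma (0.0729% of all probes). Kdr was also the 1 gene lower at an unadjusted p under 0.05, with 0 higher, against 1.69% and 3.23% of all probes. Its probe was dim, with 5.55, 6.16 and 5.72 in WT hearts and 5.02 in the KO heart. A second Kdr probe, dimmer still, gave 0.03. Tek, the angiopoietin receptor, was at 12.34 in the KO heart and at 12.14, 12.12 and 11.88 in WT hearts, a difference of 0.30 (SE 0.15). The spread of this comparison comes from the other groups. The count was 2 without WT 1, and it was 0 and the Kdr call lost without WT 2, WT 3, MatKO 1, MatKO 2, MatKO 3, PatKO 1, PatKO 2 or PatKO 3.

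When the 5 hearts with low Ddc (PatKO and KO) were set against the 7 with high Ddc (WT and MatKO), 0 of 33 genes passed the criterion on the brightest probe (0.702% of all probes) and 0 an adjusted p under 0.05 by limma (0.00884%). At an unadjusted p under 0.05, 4 genes lay higher and 4 lower, against 2.78% and 2.68% of all probes. Cd300lg stood at 0.67 (SE 0.22, limma p = 0.0104, exact permutation p = 0.0278), Plvap stood at -0.32 (SE 0.12, exact permutation p = 0.0316) and Nfatc1 at -0.29 (SE 0.11, exact permutation p = 0.0341). Npr3 was at -0.48 on its brightest probe (SE 0.21). Of its further probes, those at -0.65 and -0.50 passed the criterion and those at -0.33, -0.30 and 0.05 did not. The capillary median was 0.33 with 7 of 7 higher, and the endocardial median was -0.29 with 3 of 3 lower. The count was 4 without WT 3, 2 without WT 2 or the KO heart, and 1 without MatKO 4 or PatKO 1.

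The order of individual hearts was not the order of genotypes. The mean of the 5 capillary genes above background, relative to the 12 hearts, was -0.46, 0.11 and 0.43 in WT 1, WT 2 and WT 3. It was -0.62, -0.56, -0.22 and -0.10 in MatKO hearts, 0.10, 0.62, 0.60 and 0.37 in PatKO hearts and -0.25 in the KO heart. WT 1 thus lay among the MatKO hearts and WT 3 among the PatKO hearts. The endocardial mean ran the other way, at 0.36, 0.04 and -0.25 in WT hearts, 0.25, 0.23, 0.18 and 0.04 in MatKO hearts, -0.07, -0.34, -0.37 and -0.06 in PatKO hearts and -0.02 in the KO heart. Capillary minus endocardial mean was between -0.88 and -0.14 in MatKO hearts and between 0.17 and 0.97 in PatKO hearts, and was -0.82, 0.07 and 0.68 in WT hearts. Cd300lg, Nostrin, Rbp7 and Meox2 in the first mean and Npr3 in the second are in the study's list from these arrays. The gap between MatKO and PatKO hearts was thus largely built in and is no separate result.

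Embryonic globins, which circulating red cells lose as adult globins replace them, ran opposite to the capillary mean in most hearts. The mean of Hbb-y, Hbb-bh1 and Hba-x relative to the 12 hearts was 0.76, 0.70 and -1.03 in WT hearts, 0.41, 0.34, 0.05 and 0.58 in MatKO hearts, -0.10, -1.40, -1.47 and -0.54 in PatKO hearts and 1.69 in the KO heart. PatKO hearts were below MatKO hearts throughout, and WT 3 lay with the PatKO hearts. All 3 were lower in PatKO than in MatKO hearts, with Hbb-y at -1.55 (limma adjusted p = 0.522). With that mean as a covariate, an alternative chosen after seeing the data, 0 of the 33 genes passed the criterion, and the differences of PatKO minus MatKO were 0.71 for Cd300lg, 0.52 for Nostrin, 0.51 for Lyve1, 0.41 for Rbp7, 0.32 for Meox2 and -0.12 for Npr3. Since the PatKO and MatKO hearts did not overlap in these globins, the share of each difference that belongs to genotype and the share that goes with globin level cannot be told apart in these hearts.

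**Figure D4:**
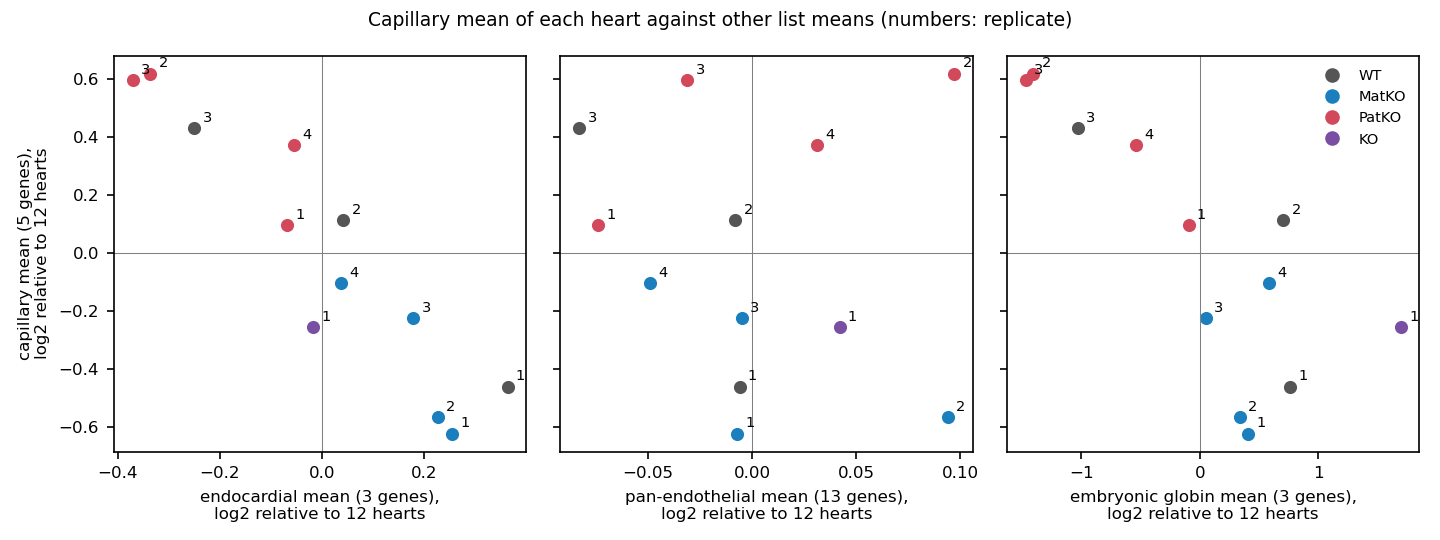
Capillary mean of each heart (vertical, 5 genes) against its endocardial mean, pan-endothelial mean and embryonic globin mean (horizontal), all as log2 relative to the 12 hearts, with numbers for the replicate. The 4 hearts with the highest capillary mean (PatKO 2, PatKO 3, PatKO 4 and WT 3) have the lowest globin means and endocardial means below 0, and the KO heart has the highest globin mean, 1.69.

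Other tissues also varied between hearts. All 20 liver genes were higher in PatKO than in MatKO hearts, with a median of 1.29. The liver mean ran from -2.13 to 1.12 in MatKO hearts, from -2.25 to 2.56 in PatKO hearts and from -1.96 to -1.50 in WT hearts. At 3.37 the KO heart had the highest liver mean of all hearts. Alb, a defining liver gene, was near background in every heart. PatKO 3, with the lowest liver mean, had a capillary mean of 0.60, and with the liver mean as a covariate Cd300lg, Nostrin and Lyve1 passed the criterion at 0.94, 0.91 and 0.93, whereas Rbp7 at 1.08 and Meox2 at 0.42 missed it. Of 13 cardiomyocyte genes 10 were higher in PatKO hearts with a median of 0.12, and their mean ran from -0.12 to -0.04 in MatKO hearts and from 0.03 to 0.09 in PatKO hearts. The part of heart muscle in the capillary result was not tested.

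Epicardial genes, of the mesothelial layer on the outer surface of the heart, also differed. Of 10 measured, 7 were on the lower side in PatKO against MatKO hearts with a median of -0.61, and 3 passed the criterion, all lower: Tcf21 at -0.66, Upk1b at -0.79 and Lrrn4 at -1.05. Against WT the median was -0.54 and 4 passed, all lower. The epicardial mean ran from 0.04 to 0.24 in MatKO hearts, from -0.71 to 0.05 in PatKO hearts and from 0.07 to 0.20 in WT hearts, and was 0.18 in the KO heart. PatKO 2 was the only PatKO heart within the MatKO range. Of 11 fibroblast genes 4 were higher and 7 lower, with 1 past the criterion (Tcf21, in both lists), and of 13 smooth muscle and pericyte genes 8 were higher and 5 lower, with 1 past the criterion on the higher side. The part of these cell types in the capillary and endocardial values was not tested.

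Further genes of the vascular pathways came from lists chosen by function. Of 15 ligands and co-receptors of the VEGF, angiopoietin, apelin and adrenomedullin systems, 8 were higher and 7 lower in PatKO than in MatKO hearts. One passed the criterion, Pgf (placental growth factor, a ligand of Flt1), at -0.55 (SE 0.16, limma adjusted p = 0.487), with 7.24, 7.05, 7.21 and 7.47 in MatKO hearts and 6.52, 6.85, 6.61 and 6.78 in PatKO hearts, without overlap, on a probe with a mean just under 7. Vegfc, the lymphatic growth factor, gave -0.28 and its co-receptor Nrp2 gave 0.49, and neither passed.

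Of 15 Notch and arterial genes, 5 were higher, 10 lower and 0 past the criterion, with the smallest p-values at Dll1 (-0.43), Jag2 (-0.40) and Hey1 (-0.43). Of 18 endothelial transcription factors, 4 were higher, 14 lower and 0 past the criterion, with a median of -0.15, led by Lyl1 (-0.50). Those shares are given beside a median of -0.01 over all genes.

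The fatty acid supply list, which shares Gpihbp1, Fabp4 and Meox2 with the capillary genes, had 12 of 14 genes measured, with 9 higher and a median of 0.23. Meox2 and Aqp7 passed the criterion. Aqp7, a glycerol channel of capillary endothelium and fat, was at 4.96, 5.11, 5.21 and 5.53 in MatKO hearts and 5.63, 6.81, 6.47 and 6.30 in PatKO hearts, and at 5.17, 4.92 and 6.15 in WT hearts. The groups did not overlap and WT 3 again lay with the PatKO hearts, but the probe was dim (difference 1.10, SE 0.29, limma adjusted p = 0.459). Lpl, the lipase that Gpihbp1 carries, gave 0.26 and Pparg 0.75, neither past the criterion.

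The endocardium and valve list had 1 of 14 genes on the higher side and 13 on the lower side in PatKO hearts, with a median of -0.28, and 3 past the criterion, all lower. Twist1, a factor of valve mesenchyme, was at 8.97, 9.25, 8.92 and 8.76 in MatKO hearts, 8.35, 8.23, 8.21 and 8.58 in PatKO hearts, 8.63, 8.70 and 8.65 in WT hearts and 8.86 in the KO heart. No PatKO heart reached the MatKO or WT hearts, and the difference of PatKO minus MatKO was -0.63 (SE 0.12, limma adjusted p = 0.262). Hapln1, a link protein of cushion matrix, gave -1.06 (SE 0.31) and Has2, the hyaluronan synthase that builds cushion jelly, gave -0.63 (SE 0.19).

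Of 13 further lymphatic genes 6 were higher, 7 lower and 0 past the criterion. Reln and Mmrn1, both secreted by lymphatic endothelium, gave 0.91 (SE 0.33) and 0.88 (SE 0.37). Reln was at 9.79, 9.75, 9.81 and 9.16 in MatKO hearts, 10.06, 10.88, 10.41 and 10.81 in PatKO hearts and 8.89, 9.28 and 10.58 in WT hearts. The PatKO hearts stood above the MatKO hearts, and WT 3 lay among the PatKO hearts, as did the KO heart at 10.77.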

How the data were processed

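The values used are log2 signals of 45267 probes that the authors deposited for 12 hearts on Illumina WG-6 arrays, background-corrected with neqc and quantile-normalized before deposit. GenomeStudio and limma, without versions, are the tools in the submitters' processing notes. Affymetrix arrays are named in the methods, whereas the probe names are those of Illumina. A scanner table of 24 columns was not used, since its columns pair with no heart by name. Groups came from the labels, with 1 array per embryo. P-values measure the spread between these hearts, and the number of arrays limits the precision.

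Linear models were fitted to every probe with limma 3.58.1 (lmFit, eBayes; R 4.3.3). One model held all 12 arrays with the 4 genotypes, and another held 5 ablated against 7 control hearts. The Benjamini-Hochberg adjustment ran over all probes. The step was tested on simulated data. Exact permutation tests were two-sided. Genes were named through the platform annotation (34875 probes with 1 symbol, 18 with several, 10374 not listed), and a gene is called dim where its mean over 12 hearts is under 7. Members and lists were chosen with earlier results of these data known. Named genes are those past the criterion, the 2 smallest p-values of each role for PatKO against MatKO, the 3 smallest of each other comparison and up to 3 of each further list. Same-numbered PatKO and MatKO hearts correlated from -0.35 to -0.21 in their deviations from group means. Each such pair lies on opposite sides of the first principal component, so these values cannot decide whether the numbers pair them. Same-numbered WT and PatKO hearts correlated at 0.54, -0.03 and 0.28, and WT and MatKO hearts at -0.285, 0.07 and -0.10. Whether the numbers pair WT hearts with others cannot be told. Alternatives were array weights, a replicate block, a robust trended variance, Xist, liver, pan-endothelial or embryonic globin levels or the side of the first principal component as covariates, 100 added to linear signals, the mean of a gene's probes, only the arrays compared, and each heart left out.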

Additional observations from a re-analysis of the deposited data

Results flagged for a closer look

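In groups of 4 hearts, 5 of 66 tests of the 33 genes found 1 heart standing apart from the other 3 by Dixon's criterion, and chance alone flags about 1 in 20 groups. Tie1 was 9.18 in PatKO 3 against 9.65 to 9.75 in the other PatKO hearts. Egfl7 was 13.46 in MatKO 3 against 13.70 to 13.75, and Plvap was 11.21 in MatKO 3 against 11.42 to 11.43. Vwf was 10.21 in PatKO 1 against 10.79 to 10.90. Apln, which is dim, was 5.53 in PatKO 3 against 4.91 to 5.01.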

How the results depend on the processing

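The number of the 33 genes past the criterion for PatKO against MatKO, 5, was 3 with Xist as a covariate, 3 with 100 added to the linear signals and 0 with the embryonic globin mean as a covariate, a setting chosen after seeing the data. It ran from 3 to 7 with each heart left out, and was 7 with the replicate block and 7 with only the arrays compared, in each case 5 higher and 2 lower (Npr3 and Plvap). With the side of the first component, also chosen after seeing the data, it was 5. For PatKO against WT the count of 0 ran from 0 to 2 with each heart left out. For MatKO against WT the count of 0 became 2 with the replicate block, 2 with array weights and 1 with a trended and robust variance, and ran from 0 to 2 with each heart left out. For KO against WT the count of 1 became 0 with the replicate block, a trended and robust variance, Xist, 100 added, the globin mean, the side of the first component and only the arrays compared, and ran from 0 to 2. For ablated against control hearts the count of 0 became 3 with the replicate block and 1 with the Xist covariate, array weights, a trended and robust variance, the liver mean, the side of the first component or the fit of 4 levels, and ran from 0 to 4. The median over the 33 genes for MatKO against WT, -0.03, was 0.00409 with the liver mean, 0.0178 with the mean of all probes, and -0.037 to 0.0355 with each heart left out. With the globin mean, the median for PatKO against WT was -0.0546 and Sox17 for PatKO against MatKO was -0.0777. The cause of these shifts was not tested. No share of all probes past the criterion is given for these settings, here or above. Whether a changed count concerns these genes or all probes alike can therefore not be told. Single named genes kept their side in 473 settings, crossed to the stronger side in 33 and to the weaker in 42, and reversed in 1. Whether the replicate numbers pair the PatKO and MatKO hearts cannot be told, and 0 genes passed an adjusted p under 0.05 in any setting run. Dim probes (6 of 33 genes) and 4 hearts per group limit what could be seen.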
